A study of Mus musculus with 7 samples.

Results

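The T cells of uninjured hindlimb muscle were described in 2 single-cell RNA libraries of total muscle. A cell was counted as a T cell when it had at least 200 genes, at most 10% of its unique molecular identifiers (UMIs, each 1 captured RNA molecule) in mitochondrial genes, at least 2 UMIs summed over Cd3d, Cd3e and Cd3g, and none of Cd79a, Pecam1 or Pdgfra. The rule found 328 of 4393 cells of total muscle, and 328 of 15267 cells in all 7 libraries. The rule reads measured values, so the levels of these genes are given as a description and support nothing.

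Both total muscle libraries came from live cells sorted after enzymatic digestion of the hindlimb muscle of 3-month-old wild-type mice, whose strain is written C56BL/6J in the labels. From mice of the same strain label, the series also holds 2 libraries of muscle stem cells (MuSC) isolated 60 h after the muscle had been damaged with notexin (2 µM), a toxin of snake venom, 2 libraries of homeostatic MuSC, and 1 library of primary myoblasts, which are cultured muscle precursors. The labels do not say whether the 2 total muscle samples came from separate mice, so the spread behind every p-value may be technical. That spread is the variation of differences between groups of cells over these 2 libraries. It was estimated largely from all genes together, and less from each gene's own values. Total muscle cells had median depths of 3054 and 3202 UMIs. The rule found 0 T cells in each of the other 5 libraries, where a count of 0 allows shares of up to 0.0835% to 0.293% by the exact binomial interval.

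T cells recognise peptides held by major histocompatibility complex (MHC) proteins through a T cell receptor. The CD3 chains carry the signal of that receptor into the cell. Killer T cells carry the coreceptor CD8, made of the products of Cd8a and Cd8b1, and read MHC class I, whereas helper and regulatory T cells carry CD4 and read MHC class II. Regulatory T cells are known in muscle for restraining inflammation and for aiding repair after injury. The constant-region genes of the T cell receptor were not analysed here.

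The 3 Cd3 genes that chose the cells lie side by side on chromosome 9 (GRCm38, GENCODE annotation), Cd3g at chr9:44969572-44980431 on the minus strand, Cd3d at chr9:44981786-44987339 on the plus strand and Cd3e at chr9:44998740-45009627 on the minus strand. Cd3g and Cd3d point away from each other. The 250 bases before each start annotated by RefSeq are shown (GRCm38.p6), since these genes define the cells, at chr9:44981536-44981785 for Cd3d, chr9:44980432-44980681 for Cd3g and chr9:45009612-45009861 for Cd3e, each on its gene's strand. The start of Cd3e differs between the annotations, and the end of its window nearest the RefSeq start lies within the GENCODE gene. Capitals mark matches to the E-box CANNTG, a motif bound by a large family of basic helix-loop-helix proteins.
Cd3d: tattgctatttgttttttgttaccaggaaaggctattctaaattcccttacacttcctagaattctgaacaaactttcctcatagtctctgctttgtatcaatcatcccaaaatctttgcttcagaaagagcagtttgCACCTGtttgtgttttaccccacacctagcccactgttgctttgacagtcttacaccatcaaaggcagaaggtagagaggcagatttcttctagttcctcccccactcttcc
Cd3g: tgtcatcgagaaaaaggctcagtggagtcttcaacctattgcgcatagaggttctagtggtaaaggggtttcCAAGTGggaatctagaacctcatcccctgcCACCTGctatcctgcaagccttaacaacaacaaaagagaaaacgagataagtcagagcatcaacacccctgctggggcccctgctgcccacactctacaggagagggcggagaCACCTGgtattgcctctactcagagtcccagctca
Cd3e: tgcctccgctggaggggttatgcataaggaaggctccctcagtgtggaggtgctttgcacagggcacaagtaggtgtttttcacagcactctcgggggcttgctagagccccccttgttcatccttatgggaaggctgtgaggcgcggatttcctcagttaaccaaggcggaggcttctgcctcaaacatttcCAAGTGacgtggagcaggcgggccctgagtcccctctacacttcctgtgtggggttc

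CANNTG, which reads the same on both strands, was found 1 time in the Cd3d window, 3 times in that of Cd3g and 1 time in that of Cd3e, and at least once in 66.2% of 32851 RefSeq windows of this length. The form CAGGTG, searched on both strands and contained in CANNTG, was found 1, 2 and 0 times in the windows of Cd3d, Cd3g and Cd3e, and in 17.2% of all windows. A match is a description of the letters and no measure of binding.

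T cells made up 157 of 1969 cells in the first total muscle library, 7.97% (95% exact binomial interval 6.82 to 9.26%), and 171 of 2424 cells in the second, 7.05% (6.07 to 8.15%). The intervals cover counting error only. Cd3d gave a UMI in 90.4% and 91.2% of the T cells of the first and second library, Cd3g in 82.2% and 78.4%, and Cd3e in 46.5% and 50.3%. All 3 genes were seen in 35.0% and 33.9% of the cells. The median T cell had 4 and 5 Cd3 UMIs and 2636 and 2677 UMIs in all.

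At the edge of the rule, 35 and 25 cells had exactly 2 Cd3 UMIs and 36 and 41 cells, left out, had exactly 1. Ms4a4b, a membrane protein gene of T cells, gave a UMI in 23 of 35 and 15 of 25 cells just inside, against 18 of 36 and 14 of 41 cells just outside. Lck, the kinase that starts receptor signalling, did so in 13 of 35 and 10 of 25 cells just inside, against 11 of 36 and 12 of 41 just outside. Tcf7, a T lineage factor, did so in 9 of 35 and 11 of 25 cells just inside, against 11 of 36 and 6 of 41 just outside, and so did not separate them in the first library.

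The defining genes of natural killer cells, Ncr1 and Klrb1c, were detected in 1 T cell of each library. They are part of a list of 10 markers of natural killer and innate lymphoid cells. Of that list only Gata3 passed the filter on low counts, and it was higher in T than in B cells (log2 fold change 5.10). These values cannot show that such cells are absent. Summed B cell markers came to 229 and 492 UMIs per 1000000 UMIs of the sum (CPM) in T cells, against 41838 and 44638 CPM in B cells. Summed markers of fibro-adipogenic connective tissue cells came to 1005 and 2794 CPM in T cells, against 45677 and 47794 CPM in cells with a Pdgfra or Pecam1 UMI. The sums include Cd79a and Pdgfra, which the rule keeps out of T cells. They also include Cd79b and Ms4a1, which with Cd79a chose the B cells. Part of each difference was therefore set in advance. In the second library 380 of the 588 Dcn UMIs of T cells lay in a single CD8 cell. Without cells of 5 or more UMIs of connective tissue genes, the comparison of CD8 with CD4 cells below gave 66 genes higher and 13 lower, 59 of its 70 calls among them, and that of T with B cells 864 and 626. Epsti1, Cebpb, Hspa1a, Jund, Stmn1, Capg, Hmgb2 and Mcm6 then lost their CD8 against CD4 calls, Cd69 gained one, and Malat1 lost its call for cells with neither coreceptor. This setting was chosen after seeing the data. The part of B cell RNA in the results was not tested. The 2 total muscle libraries shared 6 cell barcodes, and none belonged to a T cell.

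Coreceptor UMIs split the T cells into 4 classes. CD8 T cells, with a Cd8a or Cd8b1 UMI and no Cd4, numbered 51 in the first library, 32.5% of its T cells (25.2 to 40.4%), and 67 in the second, 39.2% (31.8 to 46.9%). CD4 T cells, with the reverse pattern, numbered 17, 10.8% (6.44 to 16.8%), and 12, 7.02% (3.68 to 11.9%). A single cell in each library had both, and 88 and 91 cells, 56.1% and 53.2%, had neither.

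**Figure D1:**
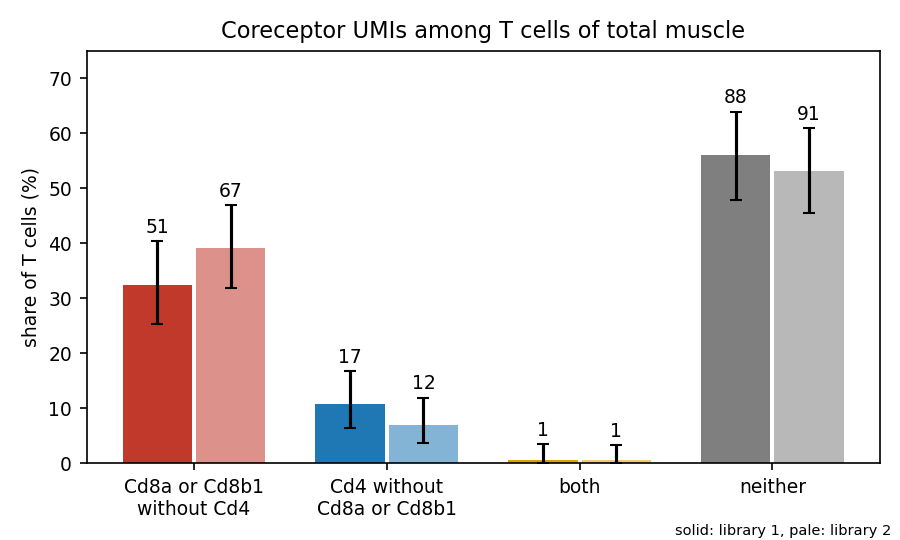
Share of T cells in percent by coreceptor class, with solid bars for library 1 and pale bars for library 2; error bars are 95% exact binomial intervals and numerals at the bars are cell numbers. CD8 T cells (51 and 67) outnumbered CD4 T cells (17 and 12) in both libraries, and the class with neither coreceptor was the largest.

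The coreceptors were read thinly. Cd8b1 without Cd8a marked 28 and 37 cells, Cd8a without Cd8b1 8 and 10 cells, and both genes together 16 and 21 cells. Of the cells with Cd4, 14 and 10 had exactly 1 Cd4 UMI and 4 and 3 had more. With every cell thinned to 1000 UMIs, the mean share over the libraries was 22.1% for CD8, 3.70% for CD4 and 74.2% for neither, against 35.8%, 8.92% and 54.6% at full depth. The size of the class with neither coreceptor therefore moved with depth, and it cannot be read as a count of T cells that lack both proteins. Median depth was 3049 and 3028 UMIs in CD8 cells, 2458 and 2775 in CD4 cells, and 2526 and 2533 in cells with neither.

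CD8 and CD4 T cells were compared to ask which genes, beyond those that define them, differ between the killer and the helper coreceptor in resting muscle. CD8 T cells held more Klf2. They also held transcripts of Nkg7, Klrd1, Ccl5 and Ly6c2, which are cytotoxic or memory-type genes. These genes were not found in the 17 and 12 CD4 T cells, which are too few to show their absence. Of 16 effector and memory genes tested, only Ly6c2 and Ccl5 were called. CD4 T cells held more transcripts of some costimulatory and inhibitory receptors typical of regulatory and activated T cells, such as Tnfrsf4 and Ctla4. These transcripts came from few cells. Other receptors tested, among them Cd28, Cd27, Tnfrsf18, Tnfrsf9 and Cd200, were not called. UMIs were summed per class and library, and tested over all genes with edgeR's quasi-likelihood test with the library as a block. Of 2874 genes tested, 70 were called at an adjusted p under 0.05, which is 2.44%, with 57 higher (1.98%) and 13 lower (0.452%) in CD8 cells.

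These calls rest on few cells. The CD4 sum of the first library held 1 cell of 27996 UMIs, 42.0% of that sum, and without cells of over 10000 UMIs 26 genes were called higher and 6 lower. Fitted on the CD8 and CD4 sums alone, without the third class to share the estimate of spread, no gene was called by edgeR, against 24 higher and 6 lower by DESeq2 on all 3 classes and 363 at an unadjusted p under 0.05 in edgeR's fit to all 3. Without the CD4 sum of the first library 128 genes were called higher and 24 lower, and without that of the second 183 and 75.

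Nkg7, which encodes a protein of cytotoxic granules, had 338 and 308 CPM in CD8 cells, against 0 and 0 CPM in CD4 cells. It was higher in CD8 cells by at least 11.3-fold against the level of 3 counts over both CD4 sums (adjusted p = 0.00390, edgeR quasi-likelihood test). Klrd1, which encodes the receptor chain CD94, had 225 and 198 CPM in CD8 cells, against 0 and 0 CPM in CD4 cells, at least 7.38-fold higher (adjusted p = 0.00728, edgeR). The libraries of the classes did not overlap for either gene, and both stayed called without cells of over 10000 UMIs. With cells thinned to 1000 UMIs neither was called (adjusted p = 0.0559 for Nkg7 and 0.169 for Klrd1, edgeR). Genes at 0 in CD4 cells passed the filter on low counts through the other classes and could come out only higher. The folds and p-values of Nkg7 and Klrd1, and of Ccl5 and Ly6c2 below, are therefore a description.

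Ccl5, a chemokine of memory and cytotoxic T cells, had 219 and 375 CPM in CD8 cells, against 0 and 0 CPM in CD4 cells, at least 11.02-fold higher (adjusted p = 0.00740, edgeR). It lost its call without cells of over 10000 UMIs (adjusted p = 0.0614, edgeR). Its UMIs came from 8 and 10 CD8 cells. Ly6c2, a surface protein of memory CD8 T cells that shares near-identical sequence with Ly6c1, had 181 and 131 CPM in CD8 cells, against 0 and 0 CPM in CD4 cells, at least 5.33-fold higher (adjusted p = 0.0142, edgeR).

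Seen cell by cell, Nkg7, Ccl5, Gzma or Gzmb gave a UMI in 36 of 51 and 38 of 67 CD8 cells, against 0 of 17 and 0 of 12 CD4 cells. A count of 0 in so few CD4 cells allows shares of up to 19.5% and 26.5% by the exact interval. The same 4 genes gave a UMI in 3 of 282 and 5 of 326 B cells and in 18 of 646 and 26 of 882 Pdgfra or Pecam1 cells. Granzyme genes were thin, with Gzma in 11 and 6 CD8 cells and Gzmb in 8 and 4.

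Most CD8 cells with cytotoxic transcripts also carried genes of circulating, naive-type T cells, at shares no higher than those of all CD8 cells. Ccr7 or Lef1, which encode a lymph node homing receptor and a transcription factor of naive and memory T cells, gave a UMI in 40 of 51 and 57 of 67 CD8 cells. Of the 36 and 38 CD8 cells with a cytotoxic UMI, 28 and 28 also had a UMI of these 2 genes. Of the CD8 cells with 3 or more Ccl5 UMIs, 6 of 6 and 5 of 5 had 1 as well, and of such cells with neither coreceptor 2 of 7 and 3 of 6. The share of CD8 cells with an Nkg7 UMI at 1000 UMIs per cell was 29.4% and 28.4%, against 51.0% and 47.8% at full depth. At 1000 UMIs it was 0% and 0% in CD4 cells and 0.155% and 0% in Pdgfra or Pecam1 cells, whose median full depths were 3686 and 4042 UMIs.

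**Figure D2:**
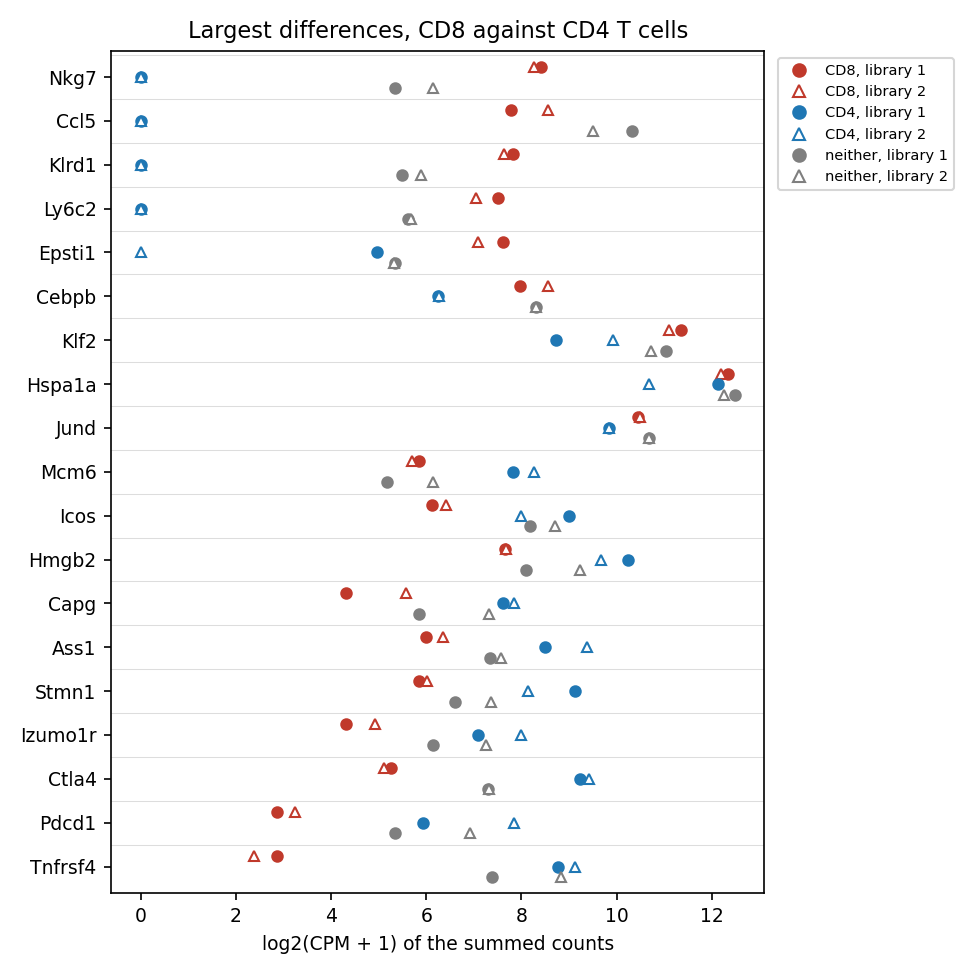
Level of genes with the largest called differences as log2(CPM + 1) of UMIs summed per class and library, with red for CD8, blue for CD4 and grey for cells with neither coreceptor; filled circles are library 1 and open triangles library 2. Nkg7, Klrd1 and Ly6c2 lie at 0 in CD4 cells and at low levels in cells with neither, whereas Ccl5 is highest in cells with neither.

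Klf2, a transcription factor that keeps T cells quiescent and in circulation, had 2619 and 2201 CPM in CD8 cells, against 420 and 968 CPM in CD4 cells. Its log2 fold change was 2.15 ± 0.30 (SE, n = 2 libraries; adjusted p = 0.00340 from edgeR). The groups did not overlap, and the call held both without cells of over 10000 UMIs and with cells thinned to 1000 UMIs. It was the single called member among 14 of 14 naive and central memory genes tested and among 19 of 24 lineage transcription factors tested, whose median log2 fold changes were 0.57 and 0.20, against 0.02 over all genes tested. Cd69, an activation and residency marker, had 625 and 291 CPM in CD8 cells, against 90.0 and 204 CPM in CD4 cells (adjusted p = 0.0575, edgeR).

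Tnfrsf4, which encodes the costimulatory receptor OX40, had 6.25 and 4.22 CPM in CD8 cells, against 435 and 560 CPM in CD4 cells, a log2 fold change of -6.33 ± 0.63 (SE, n = 2 libraries; adjusted p = 5.78e-04, edgeR). Ctla4, an inhibitory receptor that regulatory T cells carry constantly, had 37.5 and 33.7 CPM in CD8 cells, against 600 and 688 CPM in CD4 cells, a log2 fold change of -3.88 ± 0.39 (SE, n = 2 libraries; adjusted p = 5.78e-04, edgeR). Both stayed called without cells of over 10000 UMIs, and Tnfrsf4 but not Ctla4 with cells thinned to 1000 UMIs (adjusted p = 0.00653 and 0.169, edgeR). In CD4 cells they came from few cells, Tnfrsf4 from 3 and 3 and Ctla4 from 4 and 3. Both genes had few counts in CD8 cells and passed the filter on low counts through the other classes. They could hardly come out other than lower in CD8 cells, so their folds and p-values are a description.

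Izumo1r, the folate receptor 4 gene of regulatory and follicular T cells, had 18.8 and 29.5 CPM in CD8 cells, against 135 and 255 CPM in CD4 cells (log2 fold change -2.73 ± 0.54, SE; adjusted p = 0.0211, edgeR). Sh2d1a, the adaptor of SLAM receptors, had 50.01 and 97.0 CPM in CD8 cells, against 240 and 408 CPM in CD4 cells (adjusted p = 0.0268, edgeR). Icos, a costimulatory receptor, had 68.8 and 84.3 CPM in CD8 cells, against 510 and 255 CPM in CD4 cells (adjusted p = 0.0268, edgeR). Pdcd1, which encodes PD-1, had 6.25 and 8.43 CPM in CD8 cells, against 60.0 and 229 CPM in CD4 cells (adjusted p = 0.0227, edgeR). Icos and Pdcd1 lost their calls without cells of over 10000 UMIs. Izumo1r and Pdcd1 had few counts in CD8 cells and passed the filter on low counts through the other classes. Their folds and p-values are therefore a description.

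Of the 15 regulatory T cell genes, 8 were tested and 5 were lower in CD8 cells (Ctla4, Tnfrsf4, Icos, Capg and Izumo1r), with a median log2 fold change of -2.47. Over all genes tested 0.452% were lower and 1.98% higher, with a median of 0.02. In the CD4 sum of the first library, its cell of 27996 UMIs held 29 of 40 Ctla4, 21 of 34 Icos and 9 of 13 Capg UMIs, and Icos and Capg lost their calls without cells of over 10000 UMIs. Foxp3, the factor that defines regulatory T cells, gave UMIs in 0 of 51 and 1 of 67 CD8 cells, against 2 of 17 and 0 of 12 CD4 cells, so it did not separate the classes at this depth. Of 9 inhibitory receptor genes 4 were tested and 2 were lower, with a median of -3.02. Of 20 cytotoxicity genes 7 were tested and 3 were higher, with a median of 8.15. Genes at 0 in CD4 cells passed the filter on low counts through the other classes. So did genes with few counts in CD8 cells, namely Tnfrsf4, Ctla4, Pdcd1, Capg and Izumo1r. The list counts and medians of this paragraph are therefore a description.

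Genes of the cell cycle among the lower calls came largely from single cells. Stmn1, which regulates microtubules, had 56.3 and 63.2 CPM in CD8 cells, against 555 and 280 CPM in CD4 cells, and 32 of the 37 CD4 UMIs of the first library lay in its cell of 27996 UMIs. For Hmgb2, a chromatin protein of dividing cells, that cell held 68 of 81 CD4 UMIs, and for Mcm6, a replication helicase subunit, 12 of 15. In the second library the deepest CD4 cell, of 9252 UMIs, held 25 of 32 Hmgb2 UMIs and all 12 Mcm6 UMIs. All 3 cell cycle calls, of 9 of 20 genes tested, ended without cells of over 10000 UMIs, and Mcm6 turned to a log2 fold change of 0.25 without the deepest 5% of T cells.

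Ribosomal protein genes, singled out after their values were seen, made up 44 of the 57 higher calls, out of 79 tested. Their median log2 fold change was 0.54, and they took 42.2% and 38.7% of the UMIs of CD8 cells, against 32.4% and 33.4% of those of CD4 cells. Without TMM scaling, which moved the median of all genes tested from 0.02 to -0.25, 3 of them were called, and without cells of over 10000 UMIs 21 were called.

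Epsti1, an interferon-induced gene, had 194 and 135 CPM in CD8 cells, against 30.01 and 0 CPM in CD4 cells (adjusted p = 0.0307, edgeR). It passed the filter on low counts through CD8 cells alone and could come out only higher, so its p-value is a description. Cebpb, a transcription factor of stress and inflammatory responses, had 250.03 and 375 CPM in CD8 cells, against 75.02 and 76.4 CPM in CD4 cells (adjusted p = 0.0212, edgeR). Ass1, an enzyme of arginine synthesis that has a near-identical pseudogene copy, had 62.5 and 80.1 CPM in CD8 cells, against 360.1 and 662 CPM in CD4 cells (adjusted p = 0.00489, edgeR). All 3 lost their calls without cells of over 10000 UMIs.

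Tmsb4x, the actin-binding thymosin beta 4, had 6113 and 5684 CPM in CD8 cells, against 10383 and 12812 CPM in CD4 cells (log2 fold change -0.69 ± 0.11, SE; adjusted p = 0.00534, edgeR). It was the single called member among 18 cytoskeleton and thymosin genes. H2-K1, a class I MHC gene with near-identical copies among its neighbours, had 2125 and 1691 CPM in CD8 cells, against 1350 and 1299 CPM in CD4 cells (adjusted p = 0.0305, edgeR), the 1 call among 16 class I presentation genes tested, which ended without cells of over 10000 UMIs. Jund and Hspa1a, of the immediate early and heat shock genes that tissue dissociation is known to induce, were higher in CD8 cells, 2 of 28 tested. Hspa1a had 5169 and 4685 CPM in CD8 cells, against 4456 and 1630 CPM in CD4 cells, and both calls ended without cells of over 10000 UMIs.

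No member was called among 7 residency and homing genes tested, 12 cytokine receptor genes, 17 interferon response genes and 3 helper cytokine genes. With 2.44% called over all genes tested, lists this short can hold no call without differing from other genes. Cd69, of the residency list, gained a call in 11 alternative settings. Among 19 T cell receptor signalling genes Icos and Sh2d1a were lower, and among 16 effector and memory genes Ly6c2 and Ccl5 were higher. Cd247, the receptor's zeta chain, had 68.8 and 88.5 CPM in CD8 cells, against 30.0 and 50.9 CPM in CD4 cells (adjusted p = 0.459, edgeR). Of the 8 genes listed for gamma-delta T cells, 2 were measured here, neither of them a receptor gene, and neither passed the filter on low counts.

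**Figure D3:**
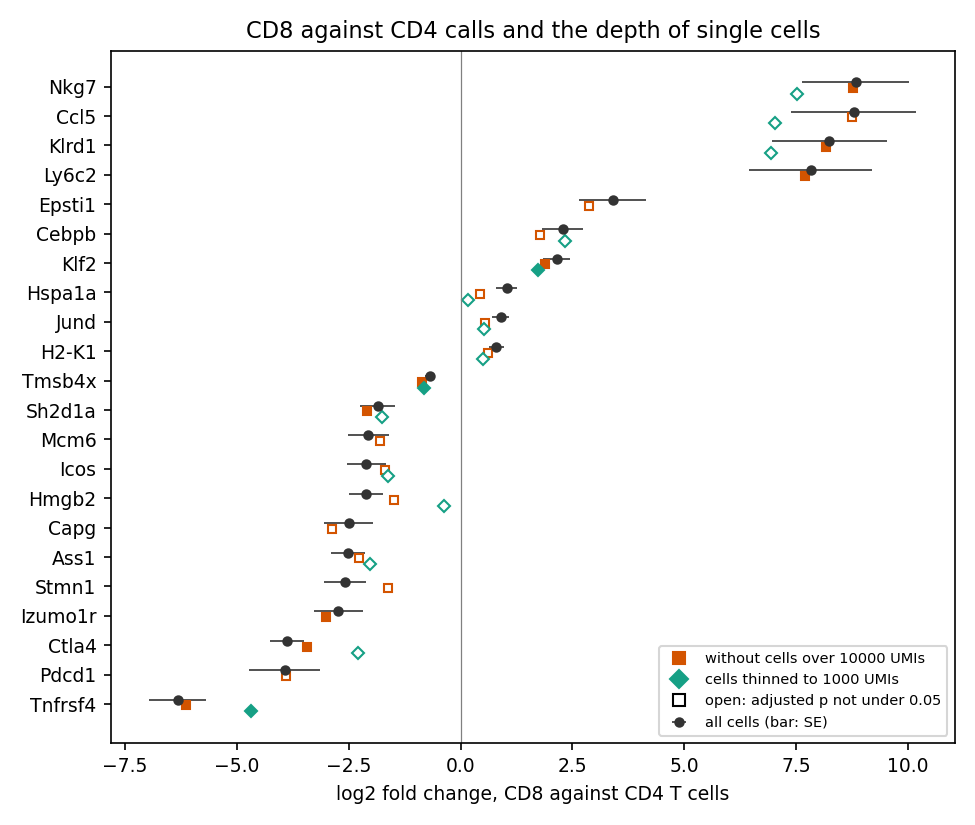
Log2 fold change of CD8 against CD4 T cells for called genes of the lists and of the largest differences, with black circles and SE bars for all cells, orange squares without cells of over 10000 UMIs and green diamonds for cells thinned to 1000 UMIs; open symbols have an adjusted p of 0.05 or more. Klf2, Tmsb4x and Tnfrsf4 stay called in all 3, whereas Stmn1, Hmgb2 and Mcm6 do not.

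T cells with neither coreceptor were set against the mean of CD8 and CD4 T cells to describe the largest class. Of 2874 genes 4 were called, 0.139%, all of them higher, and 0 were called lower. At an unadjusted p under 0.05 there were 212 genes in either direction, and DESeq2 called 1 gene higher and none lower. Without the CD8 sum of the first or second library 10 and 8 genes were called higher and 10 and 1 lower, and without the CD4 sum 34 and 102 higher and 4 and 73 lower. The class carried genes of both other classes.

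Lgals3, which encodes the lectin galectin-3, had 494 and 287 CPM in cells with neither coreceptor, against 0 and 16.9 CPM in CD8 cells and 0 and 0 CPM in CD4 cells (adjusted p = 0.00261, edgeR). It came from 9 of 88 and 8 of 91 cells, and the cell with most UMIs held 52 of 113 and 46 of 74. Lgals3 passed the filter on low counts through cells with neither coreceptor alone and could come out only higher. Its p-value is therefore a description. Ccl5 had 1275 and 729 CPM in cells with neither, against 219 and 375 CPM in CD8 cells and 0 and 0 CPM in CD4 cells (adjusted p = 0.00261, edgeR). It came from 10 and 9 cells, with up to 98 and 46 UMIs in 1 cell. Cells with Lgals3 and Ccl5 together numbered 0 and 1.

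Tnfrsf4 had 166 and 457 CPM in cells with neither, against 6.25 and 4.22 CPM in CD8 cells and 435 and 560 CPM in CD4 cells, which puts it between them in both libraries. Its call against their mean (adjusted p = 0.0472, edgeR) ended without cells of over 10000 UMIs. Ctla4 or Tnfrsf4 gave a UMI in 13 and 21 cells with neither, and Nkg7 or Klrd1 in 9 and 15. Foxp3 gave a UMI in 4 and 5 of them, and Icos in 23 and 26. Malat1, a nuclear non-coding RNA, had 51731 and 46692 CPM in cells with neither, against 38911 and 39678 CPM in CD8 cells and 40496 and 37825 CPM in CD4 cells (log2 fold change 0.31), and its call ended in the same way.

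Genes known from gamma-delta and interleukin-17 producing T cells were seen in few cells of the class, and at this depth a gene not seen in a cell cannot be read as absent. Cd163l1, which encodes the scavenger receptor SCART1, gave a UMI in 2 of 88 and 1 of 91 cells, and Il17a in 1 and 1. Sox13 gave none in any T cell class. Gamma-delta T cells could not be told apart from others on these genes.

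**Figure D4:**
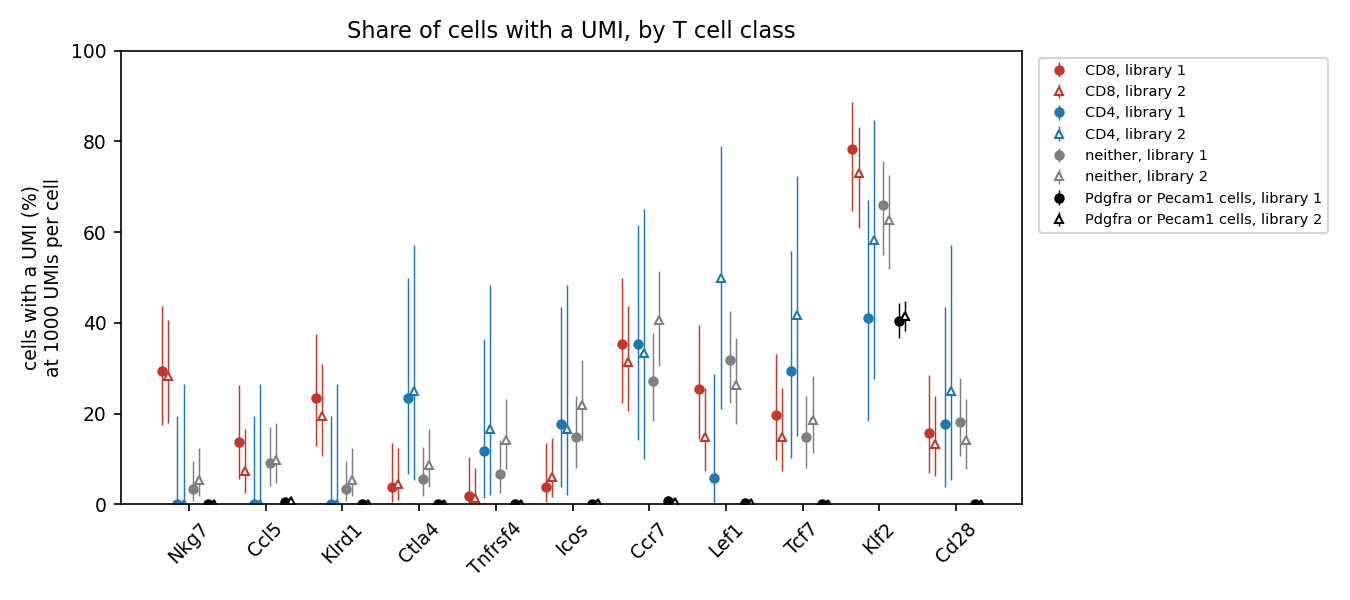
Share of cells in percent with a UMI of each gene after thinning every cell to 1000 UMIs, for CD8, CD4 and neither T cells and, as background, cells with a Pdgfra or Pecam1 UMI; bars are 95% exact binomial intervals. Nkg7 and Klrd1 stand highest in CD8 cells and Ctla4 in CD4 cells, Ccr7, Tcf7 and Cd28 are seen in all 3 T cell classes, and Klf2 is seen in 40.4% and 41.5% of the background cells.

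T cells were set against B cells, the other lymphocytes of the preparation, to describe what marks T cells beyond the genes of the rule. B cells were chosen by at least 2 UMIs of Cd79a, Cd79b and Ms4a1 and none of Cd3d, Cd3e, Cd3g, Pecam1 or Pdgfra, and numbered 282 and 326. T cells held more transcripts of most genes of receptor signalling and of most T lineage factors, and several genes of T cell function were at 0 in B cells. Of 6034 genes tested, 1015 were higher (16.8%) and 795 lower (13.2%) in T cells, 30% in all. DESeq2 called 233 and 139, and 3 of the 20 genes of the largest differences, most of which were at 0 in 1 class.

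Tcf7, the T lineage factor TCF-1, had 209 and 221 CPM in T cells, against 0 and 0 CPM in B cells, at least 106-fold higher against 3 counts over both B cell sums (adjusted p = 1.24e-75 by edgeR and 0.179 by DESeq2). Zap70, the kinase that docks on the phosphorylated receptor, had 100 and 68.2 CPM in T cells, against 0 and 0 CPM in B cells, at least 40.8-fold higher (adjusted p = 4.13e-32 by edgeR and 0.347 by DESeq2). Il2rb, the beta chain of the interleukin-2 and interleukin-15 receptor, had 124 and 138 CPM in T cells, against 0 and 0 CPM in B cells. Cxcr6, a chemokine receptor of tissue T cells, had 153 and 146 CPM in T cells, against 0 and 0 CPM in B cells. Ikzf2, Tnfsf8, Cd6, Tox, Prkcq and Nkg7 were likewise at 0 in both B cell sums. Genes at 0 in B cells passed the filter on low counts through T cells alone and could come out only higher. Their folds and p-values are therefore a description.

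Of 22 T cell receptor signalling genes 21 were tested, and 19 were higher in T cells, with a median log2 fold change of 5.84, against -0.01 over all genes tested. The exception with a call was Ptprcap, which had 203 and 220 CPM in T cells, against 431 and 435 CPM in B cells. Of 24 lineage transcription factors 20 were tested and 16 were higher and none was lower. Of 20 cytotoxicity genes 11 were tested and higher, of 15 regulatory T cell genes 10 were tested and 9 higher, and of 9 inhibitory receptor genes 5 were tested and 3 higher. Members at or near 0 in B cells passed the filter on low counts through T cells alone and could come out only higher, so these counts are a description. Ccl4, a chemokine among the cytotoxicity calls, had 4.36 and 234 CPM in T cells, against 31.1 and 124 CPM in B cells. Its 127 UMIs in T cells of the second library included 126 in the single cell with both coreceptors, which also held 137 Cd74 UMIs, and without the T cell sum of that library its log2 fold change was -3.96.

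Most naive and central memory genes were higher in T cells. Il7r, the survival receptor of resting T cells, had 257 and 208 CPM in T cells, against 2.97 and 5.00 CPM in B cells, and S1pr1, which lets lymphocytes leave tissue, had 275 and 277 CPM, against 80.1 and 72.5 CPM in B cells. Ccr7 was lower, with 567 and 622 CPM in T cells, against 729 and 874 CPM in B cells (log2 fold change -0.28 ± 0.10, SE; adjusted p = 0.0242 by edgeR, not called by DESeq2). The Ccr7 call ended in 9 alternative settings. Of 14 naive and central memory genes 10 were higher and 2 lower, and of 10 residency and homing genes tested 6 were higher and 2 lower. Over all genes tested 16.8% were higher and 13.2% lower. Of 20 effector and memory genes 16 were higher and 1 was lower. Members at or near 0 in B cells, such as Tcf7, Il7r, Ccl5 and Cxcr6, passed the filter on low counts through T cells alone. They could come out only higher, so the list counts of this paragraph are a description.

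Interferon response genes were higher in 13 of 20 tested and lower in 3, against 16.8% higher and 13.2% lower over all genes tested. The list counts that follow are to be read beside the same shares. Members at or near 0 in B cells, such as Il7r and Il2rb among the cytokine receptors, could again come out only higher. Ly6e had 399 and 398 CPM in T cells, against 1877 and 1868 CPM in B cells, and Ifi27l2a had 307 and 371 CPM in T cells, against 265 and 134 CPM in B cells. Of 17 cytokine receptor genes 8 were higher and 3 lower, of 16 class I presentation genes 8 higher and 1 lower, of 18 cytoskeleton genes 10 higher and 4 lower, of 13 cell cycle genes 8 higher and 0 lower (Hmgb2 and Mcm3, 2 of the 8, turned to log2 fold changes of -0.17 and -0.77 without the deepest 5% of T cells), and of 3 helper cytokine genes 1 in each direction. Tgfb1 had 168 and 148 CPM in T cells, against 497 and 514 CPM in B cells. Among 29 immediate early and heat shock genes 10 were higher and 10 lower, and Hspa1a had 5304 and 4510 CPM in T cells, against 2470 and 1632 CPM in B cells.

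The genes most reduced in T cells were B cell genes that the rule had not used. Mzb1, a chaperone of antibody-making cells, was at 0 and 0 CPM in T cells, against 254 and 316 CPM in B cells, at least 95.9-fold lower. Pax5, the B lineage factor, was at 0 and 0 CPM in T cells, against 81.5 and 60.0 CPM in B cells, at least 23.3-fold lower. Fcmr, Fcrla, Fcrl1, Siglecg, Fcer2a and Btk were also at 0 in both T cell sums. Genes at 0 in T cells passed the filter through B cells alone and could come out only lower, so their folds are a description.

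**Figure D5:**
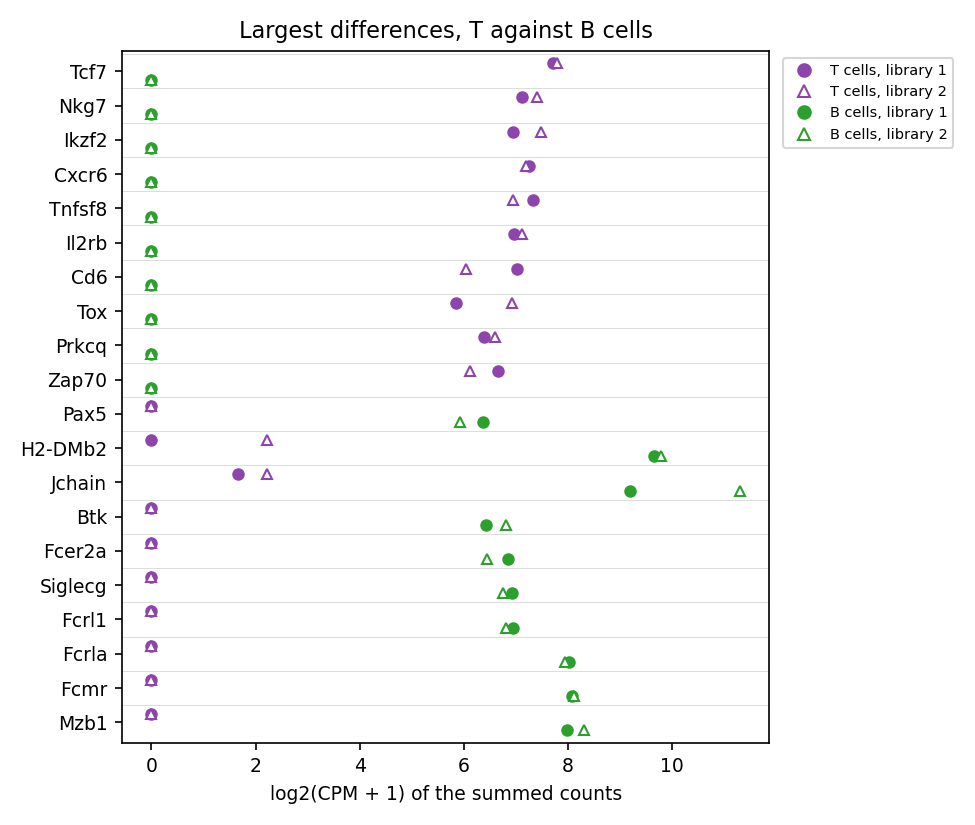
Level of the 20 genes with the largest called differences between T cells (purple) and B cells (green) as log2(CPM + 1) of the summed UMIs; filled circles are library 1 and open triangles library 2. The upper 10 genes lie at 0 in B cells of both libraries, and 8 of the lower 10 lie at 0 in T cells of both.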

How the data were processed

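Single-cell RNA libraries were deposited as counts of UMIs per gene and cell barcode for 27998 genes. The submitters' processing notes name Cell Ranger 2.2.0, bcl2fastq 2.17.1, Seurat 2.3.4 and mm10, with no role or order; the deposited counts were used as raw values. The members, gene lists and tests were chosen with earlier results of these data known. T cell classes were set by coreceptor UMIs, and raw counts were summed per class and library. CD8 sums held 159981 and 237162 UMIs, CD4 sums 66648 and 39260, sums with neither coreceptor 228934 and 258053, and B cell sums 674522 and 800135. CPM values are UMIs per 1000000 UMIs of the sum.

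Sums were tested with edgeR 4.0.16 (TMM, filter on low counts, quasi-likelihood, Benjamini-Hochberg over all genes tested, threshold 0.05) in R 4.3.3, with the library as a block because the sums of 1 library share their cells' source; same-numbered sums come from the same library. DESeq2 1.42.0 was an alternative. Each SE is the size of the log2 fold change divided by the square root of the F statistic of the edgeR test. It therefore rests on the same shared spread. The edgeR step was tested on simulated data. The genes that chose the cells got no test. Named genes were the 10 largest called rises and falls among genes of at least 50 CPM in 1 class that moved the same way in both libraries, leaving out symbols of predicted genes, and per list up to 4 called members or else 2 values; genes shown cell by cell were chosen after their values were seen. A called gene of this rule and a few list members are not reported here. 17 gene lists and 17 lists of cell type markers were counted. Scrublet called 6 and 5 cells, 0.305% and 0.206%, which is too few to have worked, so doublets stayed in; an alternative leaves out the 31 and 47 highest scores. Near-identical copies were sought with blastn 2.17.0 over the last 300 bases of each GENCODE transcript, at 95% identity over at least 200 bases. Shares have 95% exact binomial intervals, which cover counting error only.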

Additional observations from a re-analysis of the deposited data

How the results depend on the processing

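For CD8 against CD4 T cells, genes called higher and lower (57 and 13) came to 7 and 11 without TMM scaling, 147 and 28 with every gene of at least 1 count, 3 and 2 with cells thinned to 1000 UMIs, 0 and 0 for the CD8 and CD4 sums alone, 103 and 31 with the cells of both coreceptors in both classes, and 24 and 6 by DESeq2. Without the replicate block they came to 39 and 14, and for T against B cells to 924 and 702. Without cells of over 10000 UMIs, an alternative chosen after seeing the data, they were 26 and 6, and without cells of 5 or more connective tissue UMIs, chosen likewise, 66 and 13. Leaving out 1 sum at a time, also chosen after seeing the data, gave 44 to 183 higher and 10 to 75 lower, with the lone sum of a class assumed to vary like the others. For neither coreceptor, genes called higher (4) came to 37 with at least 1 count, 2 with at least 3 Cd3 UMIs, 2 with thinned cells, 8 without the deepest 5% of T cells, 1 by DESeq2 and 3 to 102 with 1 sum left out. Genes called lower (0) came to 5 with at least 1 count, 2 without the deepest 5% and 0 to 73 with 1 sum left out. For T against B cells, 500 and 330 were called with thinned cells and 233 and 139 by DESeq2. TMM moved the median of all genes there from -0.16 to -0.01. Mean shares over the libraries with at least 3 Cd3 UMIs, at least 1 Cd3 UMI and thinned cells were 6.11%, 9.27% and 4.36% for T cells (7.51% as reported), 51.1%, 59.5% and 74.2% for neither (54.6%) and 0.752%, 0.495% and 0% for both (0.611%). CD8 and CD4 fell to 22.1% and 3.70% with thinned cells. Mcm6 reversed to 0.25 without the deepest 5% of T cells. Ccl4 against B cells reversed to -0.10 with thinned cells, -4.75 without the deepest 5%, between -3.96 and 2.11 with 1 sum left out, -2.63 without the second library and -0.64 by DESeq2. Junb, Hmgb2 and Mcm3 reversed to 0.010, -0.17 and -0.77 without the deepest 5%. Leaving out a whole library left no spread to test, so it gave log2 values alone. The causes were not tested. With 12 to 17 CD4 cells per library, depth limits every statement on CD4 T cells.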
